A study of Mus musculus with 6 samples.

Results

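Ucp1 and 9 further genes of brown and beige adipocytes were followed in inguinal fat, a subcutaneous white depot, of male C57BL/6J mice. The 10 genes are Ucp1, Cidea, Prdm16, Ppargc1a, Cox7a1, Cox8b, Fabp3, Cpt1b, Dio2 and Elovl3, and each was found by its symbol in the annotation of the array, where every one of them had 1 probe among the 14411 probes with a single gene symbol and the 33012 probes in all. RNA of 8 high gainers was pooled, as was RNA of 8 low gainers, after 4 weeks on the high-fat diet D12331 that began at 8 weeks of age, so that both pools came from 12-week-old mice of the same inbred strain on the same diet and differed in the weight the mice had gained. For each pool 3 arrays were run, in 1 color and read by chemiluminescence. The 3 arrays of a pool repeat 1 RNA preparation, n counts arrays, and p-values measure the spread between arrays and not the spread between mice. Values are normalized signal intensities on a linear scale.

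Brown adipocytes, and the beige adipocytes that arise within white depots, burn fatty acids to make heat. Ucp1 lies in the inner mitochondrial membrane and lets protons return without making ATP, and its transcription rises when noradrenaline acts through cAMP on the adipocyte. Around it stand transcriptional regulators (Prdm16, Ppargc1a), an enzyme that makes active thyroid hormone (Dio2), lipid-handling proteins (Fabp3, Cpt1b, Elovl3, Cidea) and tissue-restricted subunits of cytochrome c oxidase (Cox7a1, Cox8b). Fabp3, Cpt1b, Cox7a1 and Cox8b are also genes of heart and skeletal muscle. The inguinal depot of mice is known for beige adipocytes, and it also holds a lymph node.

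Of the 10 genes, 8 had a value on all 6 arrays and were tested, and Cidea and Elovl3 each had a blank on 1 high-gainer array. A gene was called where the adjusted p from limma, over all 15821 probes tested, fell under 0.01 with a change of 1.5-fold or more. Ucp1 and Fabp3 fell in high gainers, which is 2 of 8 genes called lower where 3.99% of all probes were, and none was called higher where 2.5% of all probes were. At an unadjusted p under 0.05 from limma, 6 of the 8 were lower (13.6% of all probes) and 1 was higher (17.4% of all probes). All 3 high-gainer arrays lay below all 3 low-gainer arrays for 6 genes (16.3% of all probes), and above them for 1 gene, Prdm16 (20.3% of all probes). The log2 ratio of high gainers over low gainers had a median of -0.59 across the 8 genes and of 0.03 across all probes tested. In bulk tissue, fewer cells of a type and less RNA per cell cannot be told apart.

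**Figure D1:**
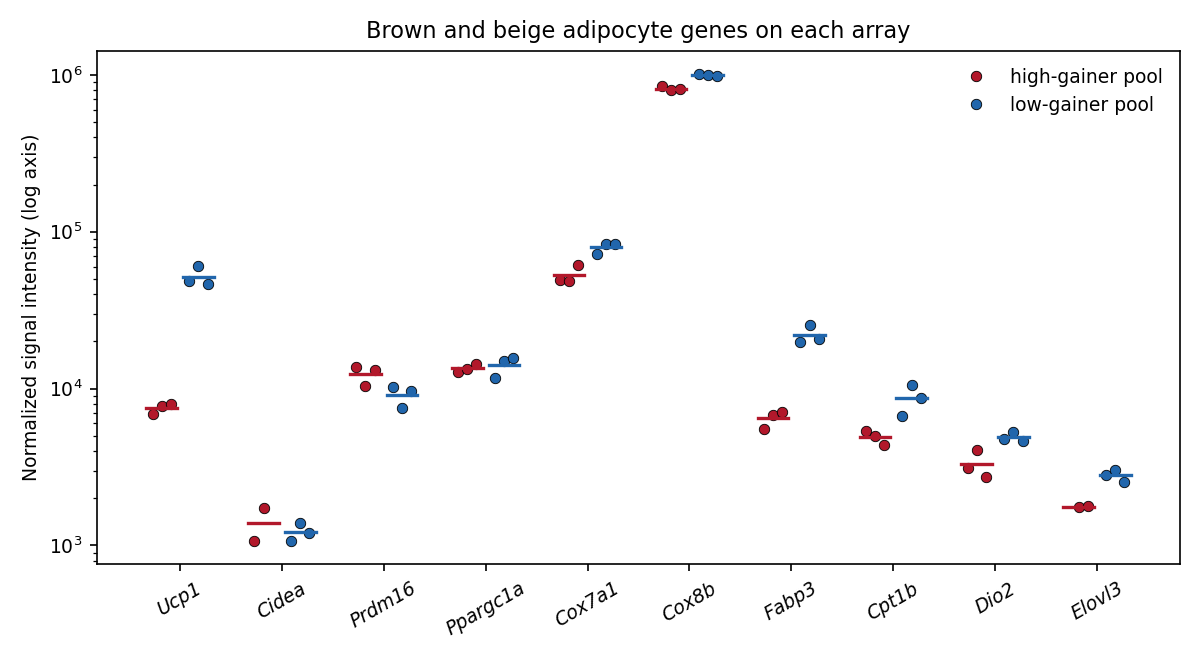
Normalized signal intensity (log axis) of the 10 brown and beige adipocyte genes on each array, with high gainers in red and low gainers in blue and a short line at the mean of the measured arrays. Ucp1 averaged 7527 on the high-gainer arrays and 51792 on the low-gainer arrays, and Cox8b, Cox7a1, Fabp3, Cpt1b and Dio2 also have all high-gainer points below all low-gainer points.

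Ucp1 had signals of 6936, 7717 and 7927 on the high-gainer arrays, against 48242, 60758 and 46376 on the low-gainer arrays. No high-gainer array came near a low-gainer array. The signal was 6.84-fold lower in high gainers (log2 ratio -2.77, standard error 0.13, 95% confidence interval -3.08 to -2.47, adjusted p = 0.000174 from limma), the lowest ratio of the 15821 probes tested. The log2 ratio lay between -2.85 and -2.65 with 1 array left out.

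Fabp3, which carries fatty acids in oxidative tissues, had the next lowest ratio of the 10 genes. Its signals were 5514, 6769 and 7075 in high gainers, against 19855, 25433 and 20817 in low gainers, again with a wide gap between the pools. It was 3.41-fold lower in high gainers (log2 ratio -1.77, standard error 0.14, 95% confidence interval -2.10 to -1.44, adjusted p = 0.000371 from limma). The call was lost in the ANOVA of the methods after Benjamini-Hochberg adjustment (adjusted p = 0.0132).

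The windows around the transcription starts of both called genes, and that of Prdm16, the 1 gene whose arrays lay on the other side, are printed here to show which binding motifs stand near them. They are RefSeq windows of build GRCm38.p6, from 250 bases before to 50 bases after the start, and 7 of the 10 genes had one. Ucp1 lies at chr8:83290098-83290397 on the plus strand, Fabp3 at chr4:130308488-130308787 on the plus strand and Prdm16 at chr4:154636824-154637123 on the minus strand, each written 5′ to 3′ in the direction of its gene. Capitals mark matches, on either strand, to the TATA box (TATAAA), the GC box (GGGCGG), the CCAAT box (CCAAT), the core motif of nuclear receptors (AGGTCA), and the cAMP response element, whole (TGACGTCA) or by its core (TGACG).
Ucp1: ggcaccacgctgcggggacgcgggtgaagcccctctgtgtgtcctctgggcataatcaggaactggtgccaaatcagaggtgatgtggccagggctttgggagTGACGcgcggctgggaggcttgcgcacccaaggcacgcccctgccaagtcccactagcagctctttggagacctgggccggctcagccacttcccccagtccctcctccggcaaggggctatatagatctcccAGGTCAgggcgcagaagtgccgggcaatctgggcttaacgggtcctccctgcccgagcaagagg
Fabp3: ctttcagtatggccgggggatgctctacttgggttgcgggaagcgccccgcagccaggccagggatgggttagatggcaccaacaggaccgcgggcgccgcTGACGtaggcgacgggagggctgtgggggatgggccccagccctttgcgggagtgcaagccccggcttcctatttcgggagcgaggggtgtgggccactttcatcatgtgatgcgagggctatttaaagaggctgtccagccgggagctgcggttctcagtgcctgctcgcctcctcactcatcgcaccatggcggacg
Prdm16: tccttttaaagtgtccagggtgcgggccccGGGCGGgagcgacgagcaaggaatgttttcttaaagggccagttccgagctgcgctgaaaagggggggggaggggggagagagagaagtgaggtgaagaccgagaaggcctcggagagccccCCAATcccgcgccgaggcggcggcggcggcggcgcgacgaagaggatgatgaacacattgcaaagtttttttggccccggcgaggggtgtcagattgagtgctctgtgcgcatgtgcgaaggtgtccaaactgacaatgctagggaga
The Ucp1 and Fabp3 windows each hold the core of the cAMP response element, at position -147 from the start of Ucp1 and -149 from that of Fabp3, and the Prdm16 window holds none. TGACG occurred in 4 of the 7 windows (Ucp1, Fabp3, Ppargc1a and Dio2) and in 21% of 27018 promoter windows of the same length. AGGTCA was found, at position -14, in the Ucp1 window of the 7 and in 16% of all promoters. The whole element TGACGTCA, which contains TGACG, was in the Dio2 window of the 7 and in 1.88% of all promoters. TATAAA stood in the windows of Cox8b and Dio2 (14.2% of all promoters), GGGCGG in that of Prdm16 (35.9%) and CCAAT in those of Prdm16 and Cox7a1 (37.9%). The motif of the estrogen-related receptors (AAGGTCA), which contains that of nuclear receptors, was in none of the 7 (4.66% of all promoters), and the E-box CANNTG was in 5 of the 7 (72.2%). These matches describe the letters of the windows and not occupied sites.

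Both regulators of the program stayed uncalled. Prdm16, a zinc finger coregulator that directs cells toward the brown fate, had signals of 13713, 10317 and 13170 in high gainers, against 10174, 7514 and 9722 in low gainers. The lowest high-gainer array lay just above the highest low-gainer array, and the log2 ratio was 0.44 (standard error 0.16, 95% confidence interval 0.07 to 0.82, adjusted p = 0.109 from limma). Ppargc1a, the coactivator of mitochondrial biogenesis, had signals of 12814, 13274 and 14363 in high gainers, against 11727, 14916 and 15705 in low gainers. The arrays of both pools overlapped, and the log2 ratio was -0.06 (standard error 0.13, 95% confidence interval -0.36 to 0.25, adjusted p = 0.816). Its log2 ratio was 0.026 without low gainers replicate 3.

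Dio2, the deiodinase that raises active thyroid hormone inside the brown adipocyte, was measured by a probe in the lowest 33.3% of the tested probes by mean signal (called dim hereafter). Its signals were 3138, 4090 and 2750 in high gainers, against 4790, 5315 and 4656 in low gainers. The pools did not overlap, and the log2 ratio of -0.58 (standard error 0.16, 95% confidence interval -0.95 to -0.22, adjusted p = 0.043 from limma) was not called.

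Cpt1b, the muscle-type carnitine palmitoyltransferase that admits fatty acids to mitochondria, also had a dim probe. Its signals were 5378, 4978 and 4375 in high gainers, against 6697, 10545 and 8758 in low gainers. All high-gainer arrays lay below all low-gainer arrays, and the signal was 1.74-fold lower in high gainers (log2 ratio -0.80, standard error 0.17, 95% confidence interval -1.21 to -0.39, adjusted p = 0.0213 from limma), which was not called. It was called without low gainers replicate 1 (adjusted p = 0.00911) and with an intensity trend in the variance and robust estimation (adjusted p = 0.00904). It was also called on arrays shifted to the adipocyte markers (adjusted p = 0.00391), where each array was moved by the median deviation of the general adipocyte genes. It stayed uncalled in 14 alternatives, and its adjusted p from limma reached 0.0668 with 1 array left out.

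Both subunits of cytochrome c oxidase differed less than Ucp1 and Fabp3. Cox7a1, the heart and muscle form of subunit VIIa, had signals of 49254, 48695 and 60945 in high gainers, against 71924, 83617 and 83557 in low gainers. The pools did not overlap, and the signal was 1.51-fold lower in high gainers (log2 ratio -0.59, standard error 0.13, 95% confidence interval -0.89 to -0.30, adjusted p = 0.0187 from limma). It was not called, but limma called it without the dim probes (adjusted p = 0.00647), with an intensity trend in the variance (adjusted p = 0.00305) and on arrays shifted to the adipocyte markers (adjusted p = 0.00592). Cox8b, a form of subunit VIII found in brown fat, heart and skeletal muscle, had signals of 844788, 799515 and 808203 in high gainers, against 1011527, 992359 and 982885 in low gainers. It ranked 261 to 283 from the brightest on the high-gainer arrays and 190 to 201 on the low-gainer arrays, so its probe was among the brightest in both pools. The log2 ratio was -0.28 (standard error 0.09, 95% confidence interval -0.49 to -0.08, adjusted p = 0.0637 from limma).

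Elovl3, an elongase of very long chain fatty acids induced by cold in brown fat, was blank on high gainers replicate 1 and had 1749 and 1781 on the other high-gainer arrays, against 2833, 3042 and 2557 on the low-gainer arrays. The measured arrays did not overlap. When probes with values on at least 2 arrays of each pool were tested (17810 probes), Elovl3 was 1.59-fold lower in high gainers (log2 ratio -0.67, standard error 0.12, adjusted p = 0.02 from limma) and was not called. Cidea, a lipid droplet protein of brown adipocytes, was blank on high gainers replicate 3 and had 1072 and 1722 on the others, against 1067, 1391 and 1208 in low gainers. These arrays overlapped, and the log2 ratio in that fit was 0.16 (standard error 0.23, adjusted p = 0.704).

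The 14 tested relatives of these genes were all uncalled, with log2 ratios between -0.30 and 0.49 and a median of 0.13. Ucp3, the uncoupling protein of muscle, had a log2 ratio of 0.22 (adjusted p = 0.159 from limma) and Slc25a14, a related carrier with a dim probe, one of 0.36 (adjusted p = 0.333). Of the fatty acid binding proteins, Fabp4, the adipocyte form, was at 0.17 (adjusted p = 0.706), Fabp5 at -0.10, Fabp2 with a dim probe at -0.18 and Fabp1, the liver form, at 0.49 (adjusted p = 0.0476). Cpt2, the inner membrane partner of the carnitine shuttle, was at -0.21 (adjusted p = 0.14) and Cpt1c at 0.11. Cox8a, the ubiquitous form of subunit VIII, had a log2 ratio of 0.16 (standard error 0.09, 95% confidence interval -0.06 to 0.38). Cidec, which builds large lipid droplets in white adipocytes, was at -0.30 and Ppargc1b at -0.24. Among the elongases, Elovl6 was at 0.45 (adjusted p = 0.0242), Elovl1 at 0.27 and Elovl5 at -0.07. Relatives with blanks were not tested. Cpt1a had 4432, 3039 and 1735 in high gainers, against 917 on low gainers replicate 3 alone. Dio1 had 1231, 2343 and 2323 in high gainers and blanks on all low-gainer arrays. Cideb had 977 and 1032 in high gainers, against 1111 on low gainers replicate 1 alone. It thus had values on more high-gainer arrays, while its 1 low-gainer value was the highest. Fabp7 went the other way from Cpt1a and Dio1, with a value on low gainers replicate 1 alone (1408). The relatives have different probes, so their levels are not set against each other.

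**Figure D2:**
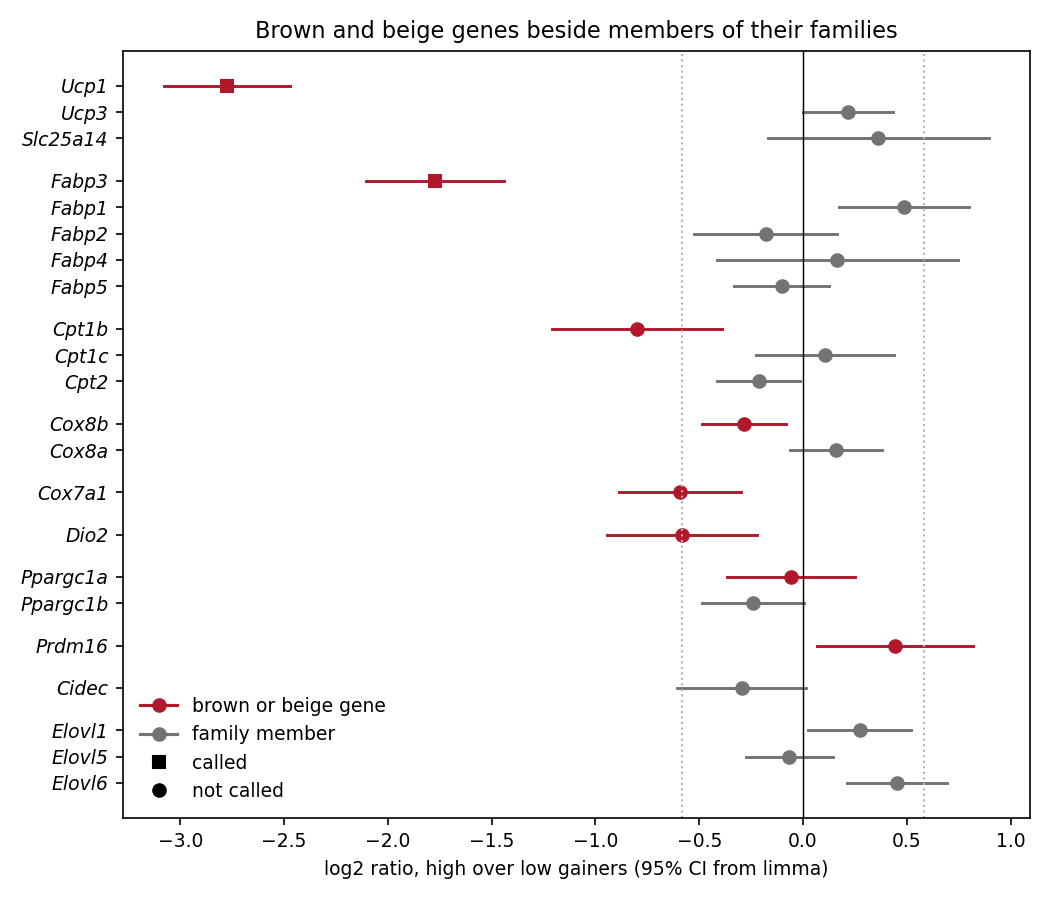
Log2 ratio of high over low gainers with its 95% confidence interval from limma for the 8 tested brown and beige genes (red) and 14 tested family members (gray). Squares are called, dotted lines mark a 1.5-fold change, and the intervals of Ucp1 and Fabp3 lie far below those of their relatives.

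The genes with the array profile most like that of Ucp1 included epithelial and lymphocyte genes. Likeness was the root mean square difference between log2 profiles over the 6 arrays, each centered on its own mean, among 8595 other genes. The nearest 10 were Krt18 (0.24), Apol7c (0.37), Ptn (0.37), Ms4a4c (0.38), Cdh1 (0.40), Cd22 (0.44), Ltf (0.45), Ly6d (0.46), Sidt1 (0.47) and Cd3g (0.48). Krt18 is a keratin of simple epithelia, Cdh1 the epithelial cadherin and Ltf the iron-binding lactoferrin of gland secretions and neutrophils, while Cd22 is a receptor of B cells and Cd3g a chain of the T cell receptor complex. Krt18, Cdh1, Cd22, Ltf and Sidt1 were measured by dim probes. All 10 were called lower in high gainers, from 3.61-fold for Cd3g to 6.26-fold for Krt18, a direction that nearness to Ucp1 itself fixes.

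Fabp3 was the nearest of the brown and beige genes, at position 20 with a distance of 0.51. Cpt1b followed at position 324 (1.01), Cox7a1 at 455 (1.10), Dio2 at 486 (1.11), Cox8b at 1095 (1.25), Ppargc1a at 2902 (1.37) and Prdm16 at 7816 (1.64). This order repeats that of their log2 ratios given above. The distance includes the difference between the pools, so the positions are not separate evidence. Within the low-gainer pool, replicate 2 gave the highest signal for 5 of the 8 tested genes (Ucp1, Cox7a1, Fabp3, Cpt1b and Dio2), where it did so for 31.3% of all probes. Within the high-gainer pool the 8 genes divided over the arrays, with replicate 3 highest for 4, replicate 1 for 3 and replicate 2 for 1. Of the 10 nearest genes, 6 were found again when high gainers replicate 1 was dropped, 6 when low gainers replicate 2 was, and 5 without the dim probes, which leaves out Krt18, Cdh1, Cd22, Ltf and Sidt1.

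**Figure D3:**
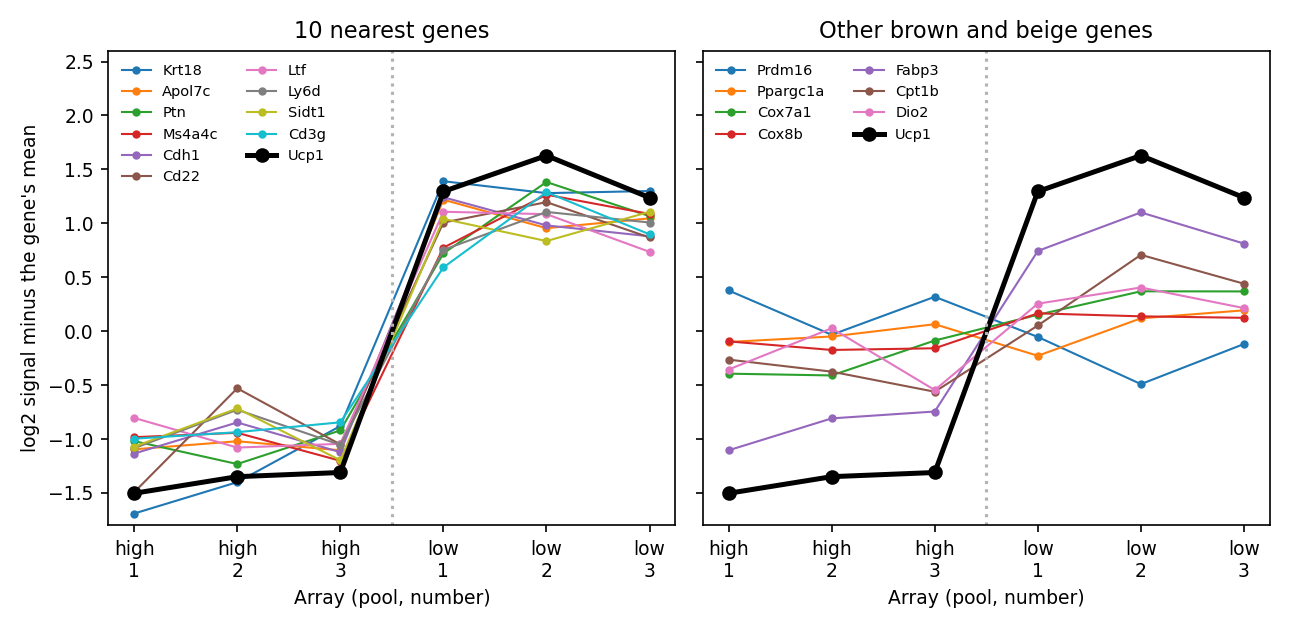
Log2 signal minus each gene's own mean across the 6 arrays, for the 10 genes nearest to Ucp1 (left) and the other 7 tested brown and beige genes (right), with Ucp1 in black in both. On the high-gainer arrays the 10 nearest genes and Fabp3 lie below their means. They do so by less than Ucp1, except Krt18 on high gainers replicates 1 and 2, where it lies further below. Ppargc1a and Prdm16 do not follow Ucp1.

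Markers of lymphocytes, epithelium and skeletal muscle were lower in the same pool. All 12 tested genes of the B lymphocyte list were called lower in high gainers (median log2 ratio -1.55), and so were 9 of 11 of the T lymphocyte list (median -1.56) and 5 of 10 of the epithelium list (median -0.93), with none called higher. The summed signal of the B lymphocyte list was 235121 to 252163 on the high-gainer arrays and 705257 to 722979 on the low-gainer arrays, that of the T lymphocyte list was 135937 to 162526 in high gainers and 400131 to 452742 in low gainers, and that of the epithelium list was 123375 to 161286 in high gainers and 189595 to 215778 in low gainers. Cd22, Ms4a1 and Cd79b were the lowest of the B lymphocyte list (log2 ratios -2.05 and -1.92 for Cd22 and Ms4a1), Cd3g, Cd8b1 and Cd3d of the T lymphocyte list (-1.85, -1.82 and -1.76), and Krt18, Cdh1 and Krt7 of the epithelium list (-2.65, -2.07 and -2.04). Without the dim probes 2 epithelial genes were called lower. Epcam, an epithelial adhesion molecule, had 1001 on high gainers replicate 2 and blanks on the other high-gainer arrays, against 14220, 12152 and 11672 on the low-gainer arrays.

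Of 26 tested skeletal muscle markers, 15 were called lower in high gainers and none was called higher. Their median log2 ratio was -0.82, and 25 of the 26 ratios were negative. Their summed signal was 3555935 to 3797422 on the high-gainer arrays and 4804516 to 5233426 on the low-gainer arrays. Much of this sum came from 1 gene, Car3, whose arrays overlapped between the pools (log2 ratio -0.10, uncalled). Car3 had 1525682, 1497354 and 1735066 in high gainers, against 1679902, 1800650 and 1603142 in low gainers. Ckmt2, the mitochondrial creatine kinase of muscle, had a log2 ratio of -1.44 (adjusted p = 0.000309 from limma), Myot, a protein of the Z disc, one of -1.35 (adjusted p = 0.000577) and Mb, the oxygen carrier myoglobin, one of -1.29 (adjusted p = 0.00209). Myog, a muscle transcription factor, was blank on all high-gainer arrays and had 1579, 2984 and 2173 on the low-gainer arrays. Myod1, another such factor, did not share this pattern. It had 1021, 1712 and 1103 in high gainers, against 1647 and 1121 in low gainers, with low gainers replicate 2 blank. The ratios of Cpt1b, Cox7a1 and Cox8b were no lower than the median of these muscle markers, while those of Ucp1 and Fabp3 were lower than that of every one of them. The count of 15 was 7 without high gainers replicate 1, 8 without high gainers replicate 2, 8 without low gainers replicate 3 and 10 or 11 in the other fits with an array left out, and it was 8 with the array number as a block. The part of muscle, epithelium or lymphoid tissue in the values of the brown and beige genes was not tested.

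The further genes of the program, taken from lists, were mostly uncalled. Of 33 tested regulators, none was called lower and 1 was called higher, Ncoa2, a nuclear receptor coactivator with a dim probe (log2 ratio 1.32, adjusted p = 0.00167 from limma). Fgf21, a hormone that stimulates browning, had a dim probe and a log2 ratio of 0.64 (adjusted p = 0.0755). Ebf2, a selective factor of brown and beige precursors, was at 0.46 (adjusted p = 0.0213), Esrra, a driver of mitochondrial genes, at 0.03 and Ppara, the fatty acid sensing receptor, at -0.26 (adjusted p = 0.164). Irf4, a factor of brown adipocytes and of lymphocytes, was at -0.59 (adjusted p = 0.0202). The regulators had a median of 0.03.

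None of 19 tested genes of adrenergic, cAMP and lipolytic signaling was called by limma in either direction (median log2 ratio 0.06). The extremes upward were Pde8a, a cAMP phosphodiesterase, at 0.47 (adjusted p = 0.0498) and Prkar2a, a regulatory subunit of protein kinase A, at 0.45 (adjusted p = 0.0598). Pnpla2, the first lipase of triglyceride breakdown, was at 0.00 (adjusted p = 0.999). The beta-adrenergic receptor genes were not analysed here.

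Of 39 tested genes of fuel supply and heat production other than the 10, 1 was called lower (3.99% of all probes) and 2 were called higher (2.5% of all probes). Acss1, a mitochondrial acetyl-CoA synthetase, had a log2 ratio of -0.70 (adjusted p = 0.00672 from limma). The 2 higher genes both belong to creatine supply: Slc6a8, the creatine transporter, at 0.78 (adjusted p = 0.00266), and Gamt, the enzyme of the last step of creatine synthesis, at 0.74 (adjusted p = 0.00332). Gatm, the enzyme of the first step, with a dim probe, was at 0.70 (adjusted p = 0.0151). The creatine kinases did not share this direction. Ckmt2 and Ckm, both on the skeletal muscle list, were called lower at -1.44 and -0.86, and Ckb was uncalled at 0.29. Dropping any high-gainer array, or low gainers replicate 3, left 0 genes of this list called lower. The 2 higher calls became 0 when high gainers replicate 1, low gainers replicate 1 or low gainers replicate 3 was dropped, 1 when any other array was, and 0 on arrays shifted to the adipocyte markers. Hspb7, a small heat shock protein with a dim probe, had the highest log2 ratio, 1.10 (adjusted p = 0.0133). Slc27a1, a fatty acid transporter, was at -0.97 (adjusted p = 0.0108).

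None of 56 tested subunits of the respiratory chain and ATP synthase was called by limma, and their log2 ratios ran from -0.32 for Cox6b2, a form with a dim probe, to 0.25 for Ndufa13, with a median of -0.03. Cycs, cytochrome c, was at -0.29 (adjusted p = 0.204). The log2 ratios of Ucp1, Fabp3, Cpt1b, Cox7a1 and Dio2 all lay below this range, and that of Prdm16 (0.44) lay above it. None of 19 genes of fatty acid oxidation was called by limma (median -0.10), with 14 of the 19 log2 ratios negative. All high-gainer arrays lay below all low-gainer arrays for 8 of the 19 (16.3% of all probes) and above them for 0 (20.3% of all probes). The lowest were Ehhadh, a peroxisomal enzyme, at -0.52 (adjusted p = 0.0182), Hadha, which acts on long chains in the mitochondrial beta-oxidation cycle, at -0.49 (adjusted p = 0.0353) and Slc25a20, the carnitine carrier, at -0.49 (adjusted p = 0.0553).

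**Figure D4:**
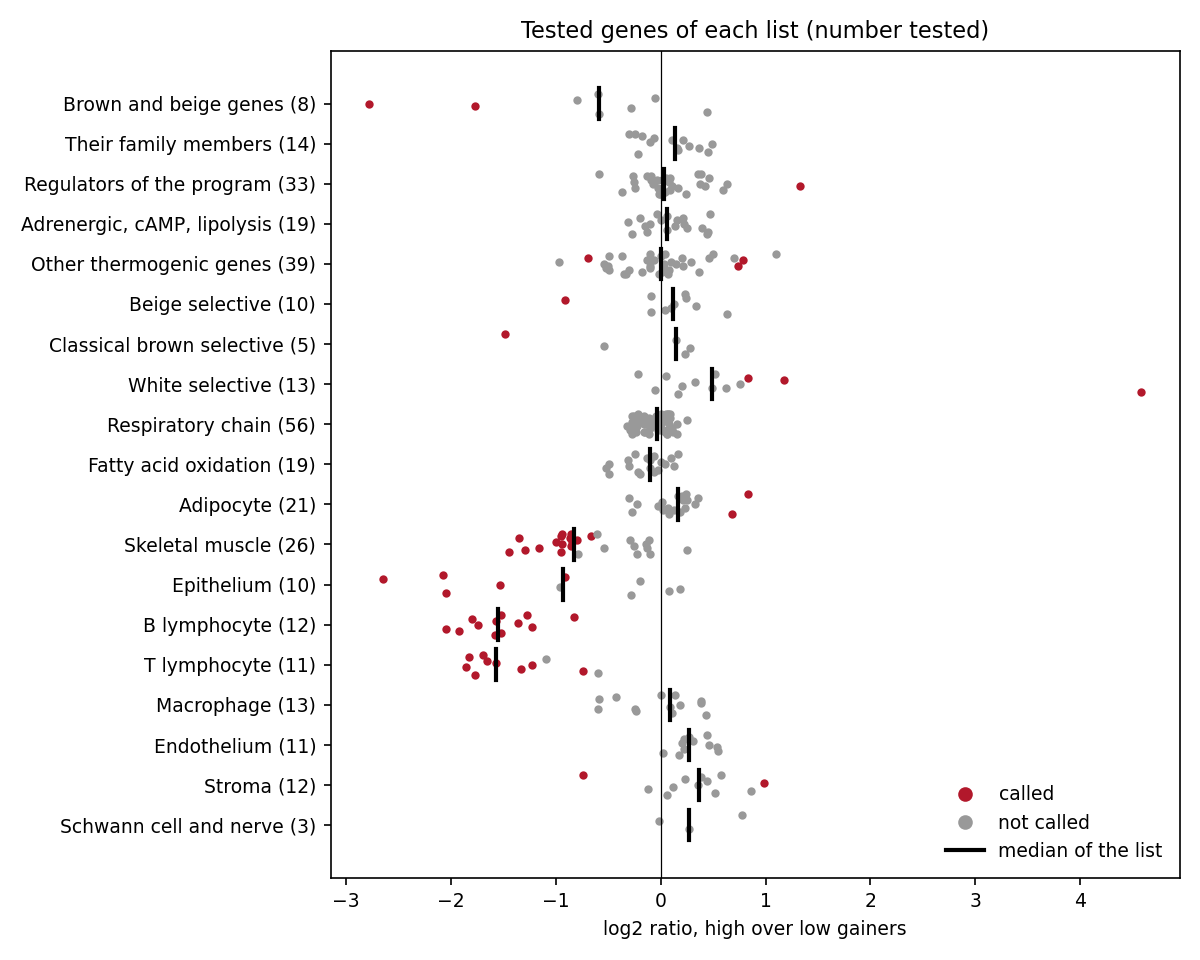
Log2 ratio of high over low gainers for every tested gene of 19 lists (points, red where called), with the median of each list as a black line and the number tested in brackets. The brown and beige genes have a median of -0.59, the respiratory chain -0.03, skeletal muscle -0.82 and B lymphocytes -1.55.

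Markers reported as selective for beige, classical brown or white adipocytes were followed as lists. Of 10 tested beige-selective genes, 1 was called, Cd40, a costimulatory receptor also of B cells, lower in high gainers (log2 ratio -0.91, adjusted p = 0.00621 from limma), and the median was 0.12, with 7 of the 10 log2 ratios positive. Fgf21, named above, had the highest of these at 0.64, followed by Hoxc9, a homeobox factor, at 0.34 (adjusted p = 0.143), and for Klhl13 at 0.24 (adjusted p = 0.121) all high-gainer arrays lay above all low-gainer arrays. Of the fits that dropped an array, Cd40 was called only in that without low gainers replicate 1. Tmem26, a surface marker of beige cells, was blank on high gainers replicate 3 and had 1072 and 1146 on the other high-gainer arrays, against 3347, 2156 and 1986 on the low-gainer arrays. Tnfrsf9, used as a beige marker and also a receptor of activated T cells, had 2884 and 1815 in high gainers, with replicate 3 blank, against 5073, 6413 and 5559 in low gainers. For Tmem26 and Tnfrsf9, which were picked after their values were seen, the measured high-gainer arrays lay below all low-gainer arrays. Cited1 and Tbx1 of the same list also had blanks. Cited1 had 1758 on high gainers replicate 3 alone, against 2677, 2758 and 2886 in low gainers. Tbx1 had 1364 and 1707 in high gainers, with replicate 3 blank, against 2485 on low gainers replicate 1 alone.

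Of 5 tested genes selective for classical brown adipocytes, Epsti1, which is also an interferon-responsive gene, was called lower (log2 ratio -1.48, adjusted p = 0.000927), Pdk4, which spares glucose by inhibiting pyruvate dehydrogenase, was at -0.54 (adjusted p = 0.0142) and the median was 0.15, with 3 of the 5 log2 ratios positive. Zic1, the defining marker of the classical brown lineage, was blank on all 6 arrays. Of 13 tested white-selective genes, 3 were called higher and none lower, with a median of 0.49. These were Mest, an imprinted gene, at 4.58, Dpt, a matrix protein, at 1.18 and Lep, the hormone leptin, at 0.83 (adjusted p = 3.23e-06, 0.00202 and 0.0035 from limma). The count of 3 was 1 without high gainers replicate 1. All 21 general adipocyte markers with a probe had values on all 6 arrays. Of these, Lep and Plin4 were called higher, both calls being lost without high gainers replicate 1, high gainers replicate 2 or low gainers replicate 3, and the median was 0.17.

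Lists of further cell types of the depot differed less. None of 13 macrophage and 11 endothelial markers was called by limma (medians 0.09 and 0.27), and the largest log2 ratios in size were -0.59 for both Aif1 and Cybb of macrophages, 0.55 for Tek and 0.54 for Esam of endothelium. Of 12 stromal markers, Pi16, a progenitor marker, was called higher and Thy1, which is also on the T lymphocyte list, lower (median 0.37), the call of Thy1 being lost whichever array was dropped. All 11 endothelial log2 ratios were positive. High-gainer arrays all lay above low-gainer arrays for 7 of the 11 endothelial, 8 of the 12 stromal and 3 of the 13 macrophage markers (20.3% of all probes). They all lay below for 0, 1 and 4 of these markers, in the same order (16.3% of all probes). The 3 tested genes of Schwann cells and nerve had a median of 0.27 with none called, led by Mbp at 0.77 (adjusted p = 0.0717 from limma) and Pmp22 at 0.27.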

How the data were processed

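Inguinal fat RNA of 2 pools of 8 mice each, 6 arrays in all, was compared. The authors transcribed labeled cRNA, hybridized it to Applied Biosystems mouse arrays and normalized the signals across arrays by the quantile method, and the deposited table holds signal intensity on a linear scale, with a blank where a probe was given none. The number of arrays limits the precision. Each array had values for 18018 to 20605 of 33012 probes. Between arrays of the same pool r was 0.988 to 0.994.

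Values were log2 transformed without further normalization, and the 15821 probes with values on all arrays were fitted with limma 3.58.1 in R 4.3.3, with Benjamini-Hochberg adjustment over all of them. In data simulated from these probes, 46 of 50 probes lowered 5-fold and 26 of 50 lowered 2-fold were called. The simulation changed fewer probes than were called in the data, so these rates need not hold there. Its spread was that between arrays and not between mice. A gene with several probes was represented by its brightest. Of the 14411 probes with a single symbol, 14402 were matched to a current RefSeq symbol, and the others kept that of the array annotation. Promoter windows came from RefSeq (GRCm38.p6).

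The members, lists and alternatives were chosen with earlier results of these data known. The alternatives were other normalizations, filters, variance models, thresholds, the ANOVA of the methods, a replicate block and each array left out. Named genes are all members, their tested relatives, the 10 nearest to Ucp1 and the most changed of each list. Ppara, Esrra, Ebf2, Irf4, Pnpla2, Gatm, Slc27a1, Hspb7, Ndufa13, Hadha, Hoxc9, Klhl13, Zic1, Epcam, Myog, Tmem26 and Tnfrsf9 were chosen after their values were seen. So were Myod1, Cpt1a, Dio1, Cideb, Fabp7, Ckm, Ckb, Car3, Tbx1 and Cited1. Deviations from the pool means of same-numbered arrays correlated at r = 0.04, -0.11 and 0.27, and such arrays were not treated as pairs.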

Additional observations from a re-analysis of the deposited data

How the results depend on the processing

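The direction and call of Ucp1 held in all 18 alternatives. The direction of the 8 tested genes held in every alternative run on them except 1, in which Ppargc1a had a log2 ratio of 0.026 without low gainers replicate 3 (-0.18 to 0.026 with 1 array left out). Of the 8 genes, 4 were called lower on arrays shifted by the median deviation of the adipocyte markers (a change of -0.16 in every log2 ratio), 4 with an intensity trend and robust estimation, 1 by the ANOVA of the methods after Benjamini-Hochberg adjustment, and 2 to 3 with 1 array left out. None was called higher in any of the 20 alternatives. The median over these genes was -0.74 on the shifted arrays and -0.44 without the dim probes, which removes Cpt1b and Dio2. Of the 10 genes nearest to Ucp1, 5 remained without the dim probes, 6 with the 10th percentile of the signal added before log2, and 6 to 9 with 1 array left out.

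Over all probes, 632 were called lower and 396 higher. These counts were 758 and 124 on the shifted arrays, 111 and 46 by the ANOVA after adjustment, 402 and 98 with a 2-fold threshold, and 368 to 493 and 105 to 319 with 1 array left out, lowest without high gainers replicate 1. With the array number as a replicate block they were 446 and 173, and the same 2 genes, Ucp1 and Fabp3, were called lower (adjusted p = 0.00211 for both from limma). By that ANOVA 5 of the 12 B lymphocyte, 5 of the 11 T lymphocyte, 3 of the 26 muscle and 0 of the 10 epithelial genes were called lower. The array number pairs no samples in the design. The cause of these differences was not tested. Signals near the lower end of the arrays limit Dio2, Cpt1b, Cidea and Elovl3. Averaging the probes of a gene leaves the 10 genes as they are, since each has 1 probe.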
